A study of Arabidopsis thaliana with 18 samples.

Results

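The warm response of miRNAs in *dcl1-24/hyl1-2* was measured as the difference between 3 small RNA libraries from seedlings kept at 27 °C and 3 from seedlings kept at 21 °C, which were chosen by genotype and temperature alone and are 6 of the 18 libraries of the series. All 161 miRNA entries of the deposited table were compared. They stand for 203 miRNA names, since 29 entries join several miRNAs with the same mature sequence. Both groups were whole 4-d-old Arabidopsis seedlings grown in red light, at 21 °C for the first 48 h and then for another 48 h at 21 °C or 27 °C. Both carried the *hyl1-2* mutation and *dcl1-24*, a proline-to-serine substitution in the RNase IIIa domain of DCL1 that came from a mutagenesis screen for suppressors of *hyl1-2*. The other 12 libraries are Col-0, the wild type, and *hyl1-2* without the suppressor, each with 3 libraries at either temperature.

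In plants, DCL1 cuts a miRNA duplex out of a folded precursor, and HYL1, a double-stranded RNA-binding protein, helps DCL1 to cut efficiently and at the right place. The guide strand of the duplex is then loaded into an ARGONAUTE protein and represses mRNAs with a matching site, while the passenger strand is mostly degraded. *dcl1-24* acts as a suppressor of the loss of HYL1, so the comparison asks which miRNAs respond to a warm temperature when precursors are cut by this DCL1 without HYL1. The table holds miRNAs only, and neither *DCL1* nor *HYL1* RNA was analysed here to check the genotype.

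The sequences below are the miRNAs on which the results turn, matched by name to the RefSeq annotation of the TAIR10.1 build, in which each of the 203 names was found. They are written 5′ to 3′ with the seed, bases 2 to 8, in capitals. The first 2 had lower levels at 27 °C on the deposited scale, and the others passed a test under another scaling or in a fit that pairs replicates, or are close relatives of one that did.
miR169f-3p: gCAAGUUGaccuuggcucugc
miR3932b-5p: uUUGACGUgcucgaucugcuc
miR159b-5p: gAGCUCCUugaaguucaaugg
miR158a-3p: uCCCAAAUguagacaaagca
miR158b: cCCCAAAUguagacaaagca
miR157a-5p: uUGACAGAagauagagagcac
miR156a-5p: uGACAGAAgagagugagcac
miR393b-3p: aUCAUGCGaucucuuuggauu
miR408-3p: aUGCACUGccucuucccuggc
miR158a-3p and miR158b have the same seed, whereas those of miR157a-5p and miR156a-5p differ because miR157a-5p begins 1 base earlier.

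miR169f-3p lies on chromosome 3 from 4805713 to 4805733 on the minus strand, within MIR169f (AT3G14385) and outside any other annotated gene. miR3932b-5p lies on chromosome 4 from 7890695 to 7890715 on the minus strand, within MIR3932b (AT4G06130) and also within an exon of AT4G13575 on the same strand. miR393b-3p lies on chromosome 3 from 20691778 to 20691798 on the plus strand, within MIR393b (AT3G55734). miR408-3p lies on chromosome 2 from 19319933 to 19319953 on the plus strand, within MIR408 (AT2G47015), and opposite to an exon of AT2G47020. miR158a-3p lies on chromosome 3 from 3366349 to 3366368 on the minus strand, within MIR158a (AT3G10745). The hairpins of the first 3 are shown because the table lists only 1 arm of each. In them the annotated 5p and 3p arms are in capitals.
MIR169f: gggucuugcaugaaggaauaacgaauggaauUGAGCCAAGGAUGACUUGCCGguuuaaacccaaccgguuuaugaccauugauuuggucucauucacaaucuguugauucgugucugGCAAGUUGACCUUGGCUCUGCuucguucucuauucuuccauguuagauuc
MIR3932b: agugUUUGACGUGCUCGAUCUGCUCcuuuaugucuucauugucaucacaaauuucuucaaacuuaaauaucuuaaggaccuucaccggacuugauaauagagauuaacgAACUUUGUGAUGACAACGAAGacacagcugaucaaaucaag
MIR393b: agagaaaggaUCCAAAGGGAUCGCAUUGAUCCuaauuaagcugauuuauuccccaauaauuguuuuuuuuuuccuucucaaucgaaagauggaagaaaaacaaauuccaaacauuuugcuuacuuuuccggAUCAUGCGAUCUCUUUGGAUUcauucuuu
In each of these 3 precursors only 1 arm has an entry in the table, the 3p arm of MIR169f and MIR393b and the 5p arm of MIR3932b. The opposite arms were not analysed here.

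Levels are given as reads of a miRNA scaled to the reads of 45S rRNA in its library (RPMR), the unit of the deposited table, so a value depends on the rRNA fragments in a library as well as on the miRNA. The summed level of all entries was 40339, 29167 and 107318 RPMR in replicates 1, 2 and 3 at 21 °C, and 28742, 52972 and 80581 RPMR at 27 °C. The spread within each temperature was wider than the difference between their means, which was -0.01 on the log2 scale (exact permutation test, two-sided, p = 0.9, with 0.1 the smallest p that 3 against 3 allows). The mean of log10(RPMR + 1) over the entries was 1.11 ± 0.15 (SD, n = 3) at 21 °C and 1.08 ± 0.20 (SD, n = 3) at 27 °C (exact permutation test, two-sided, p = 0.9). Values are whole multiples of the smallest in each library, and on this basis the 6 libraries hold 61810 to 147642 miRNA reads and 1115776 to 3449532 45S rRNA reads. The rRNA count was lowest in replicate 3 at 21 °C, the library with the highest summed level, and highest in replicate 1 at 27 °C, the library with the lowest. The part of the rRNA counts in the fold changes was not tested, and results are also given below after a scaling that uses the miRNAs themselves.

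Most of the reads came from a few miRNAs. miR5026 was the most abundant, at 15608, 10845 and 69148 RPMR at 21 °C and 17730, 30979 and 43895 RPMR at 27 °C. Its groups overlapped, and replicate 3 at 21 °C stood above every other library. It held 46.8 ± 15.3% of the summed level at 21 °C and 58.2 ± 3.6% at 27 °C (SD, n = 3). miR158a-3p was next, followed by the guide strands of miR166, miR159b, miR156 and miR159a. The 10 most abundant entries of each library held 89.0 to 93.2% of its summed level.

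Of the 161 entries, 139 averaged 1 RPMR or more across the 18 libraries and were tested with limma on log2(RPMR + 1). None rose and 2 fell at 27 °C at an adjusted p under 0.05 (Benjamini-Hochberg over the 139 entries), which is 1.44% of the entries tested. At an unadjusted limma p under 0.05 there were 5 higher and 7 lower, or 8.63%. The median log2 fold change over the 139 was -0.03, with 67 values above 0 and 72 below. This median depended on single libraries, and was 0.35 (94 above 0) without replicate 1 and -0.44 (43 above 0) without replicate 3 at 27 °C, and 0.29 (83 above 0) without replicate 3, -0.23 without replicate 1 and -0.24 without replicate 2 at 21 °C. By the rule of an unadjusted p under 0.01 and a change of over 2-fold, 1 entry was higher, miR5637, and 4 were lower, 3.6% in all. The 3 libraries at 27 °C lay all above the 3 at 21 °C for 1 entry and all below for 8, together 6.47% of the entries.

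miR169f-3p is the strand opposite to the miR169 guide, whose family targets mRNAs of NF-YA subunits of the nuclear factor Y transcription factor. Its level at 21 °C was 10.0, 6.13 and 26.9 RPMR. At 27 °C it was 0.58, 0.89 and 0 RPMR. Every library at 27 °C was thus below every library at 21 °C. Its log2 fold change was -3.17 (SE 0.67, limma adjusted p = 0.00081). The values at 27 °C stand for 4 reads in all, against 67 at 21 °C, and the 0 in replicate 3 allows a level of up to 1.64 RPMR, the level of 3 reads. Over the pooled reads the rate at 21 °C was 22.4 times that at 27 °C (95% exact interval 8.35 to 84.6, for counting error only). Without each library in turn the log2 fold change was -3.61 to -2.62 and the limma adjusted p 0.00052 to 0.036, past the threshold each time. The fold change understates the pooled ratio because of the pseudocount of 1.

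The other miR169 entries were at low levels. miR169a-5p, a guide strand, was at 1.25, 5.19 and 0.896 RPMR at 21 °C and at 0.87, 3.12 and 1.64 RPMR at 27 °C. Its groups overlapped, with a log2 fold change of -0.13 (SE 0.58). miR169a-3p, miR169b-3p and the joint entry of miR169b-5p and miR169c were under the mean of 1 RPMR and were not tested, and none was above 2.92 RPMR in any of the 6 libraries. A warm response of the miR169 guides of other members could not be judged at these levels.

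miR3932b-5p belongs to a family outside the broadly conserved ones, and no role is given for it here. It was at 44.7, 22.2 and 114 RPMR at 21 °C. At 27 °C it was at 5.80, 3.56 and 12.6 RPMR. Again no library at 27 °C reached the lowest at 21 °C. Its log2 fold change was -2.73 (SE 0.72, limma adjusted p = 0.018). The pooled reads, 281 at 21 °C and 51 at 27 °C, give a rate that was 7.37 times higher at 21 °C (95% exact interval 5.45 to 10.13, for counting error only). The call was lost without replicate 3 at 21 °C (-2.12, limma adjusted p = 0.24), without replicate 1 at 27 °C (-2.66, 0.068) and without replicate 2 at 27 °C (-2.37, 0.28).

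miR159b-5p is the passenger strand of miR159b, whose guide represses GAMYB-like transcription factor mRNAs. It was at 4.59, 8.97 and 4.48 RPMR at 21 °C and at 0.87, 0.445 and 1.64 RPMR at 27 °C, without overlap. Its log2 fold change of -1.81 (SE 0.56) did not pass on all 139 entries (limma adjusted p = 0.082), but did when same-numbered libraries were paired by a replicate block (limma adjusted p = 0.029), which gave 3 lower entries in place of 2, 2.16% of those tested. The block together with median-of-ratios scaling did not call it (limma adjusted p = 0.11), nor did any of the unblocked fits without 1 library on either scale. This rests on 35 reads at 21 °C and 7 at 27 °C. The guide, miR159b-3p, was at 2551, 1836 and 2675 RPMR at 21 °C and at 1117, 2485 and 3156 RPMR at 27 °C. The guide's libraries overlapped, with a log2 fold change of -0.17 (SE 0.64).

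The other entries with separate groups were mostly rare. miR843, miR168b-3p (the passenger of miR168, whose guide represses the AGO1 mRNA) and miR825 had log2 fold changes of -1.68 (SE 0.59), -1.50 (SE 0.65) and -1.38 (SE 0.66), with limma adjusted p of 0.13, 0.39 and 0.52. Each rests on at most 54 reads at 21 °C and 22 at 27 °C. miR163 was at 142, 112 and 212 RPMR at 21 °C and at 52.2, 79.7 and 103 RPMR at 27 °C, with a log2 fold change of -0.98 (SE 0.73). The guide entry of miR157 and miR408-3p, the only entry above, are described below. Among the 22 untested entries, miR842 alone had separate groups, at 1.25, 2.36 and 0.896 RPMR at 21 °C and 0, 0.445 and 0.546 RPMR at 27 °C, which is within a few reads.

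**Figure D1:**
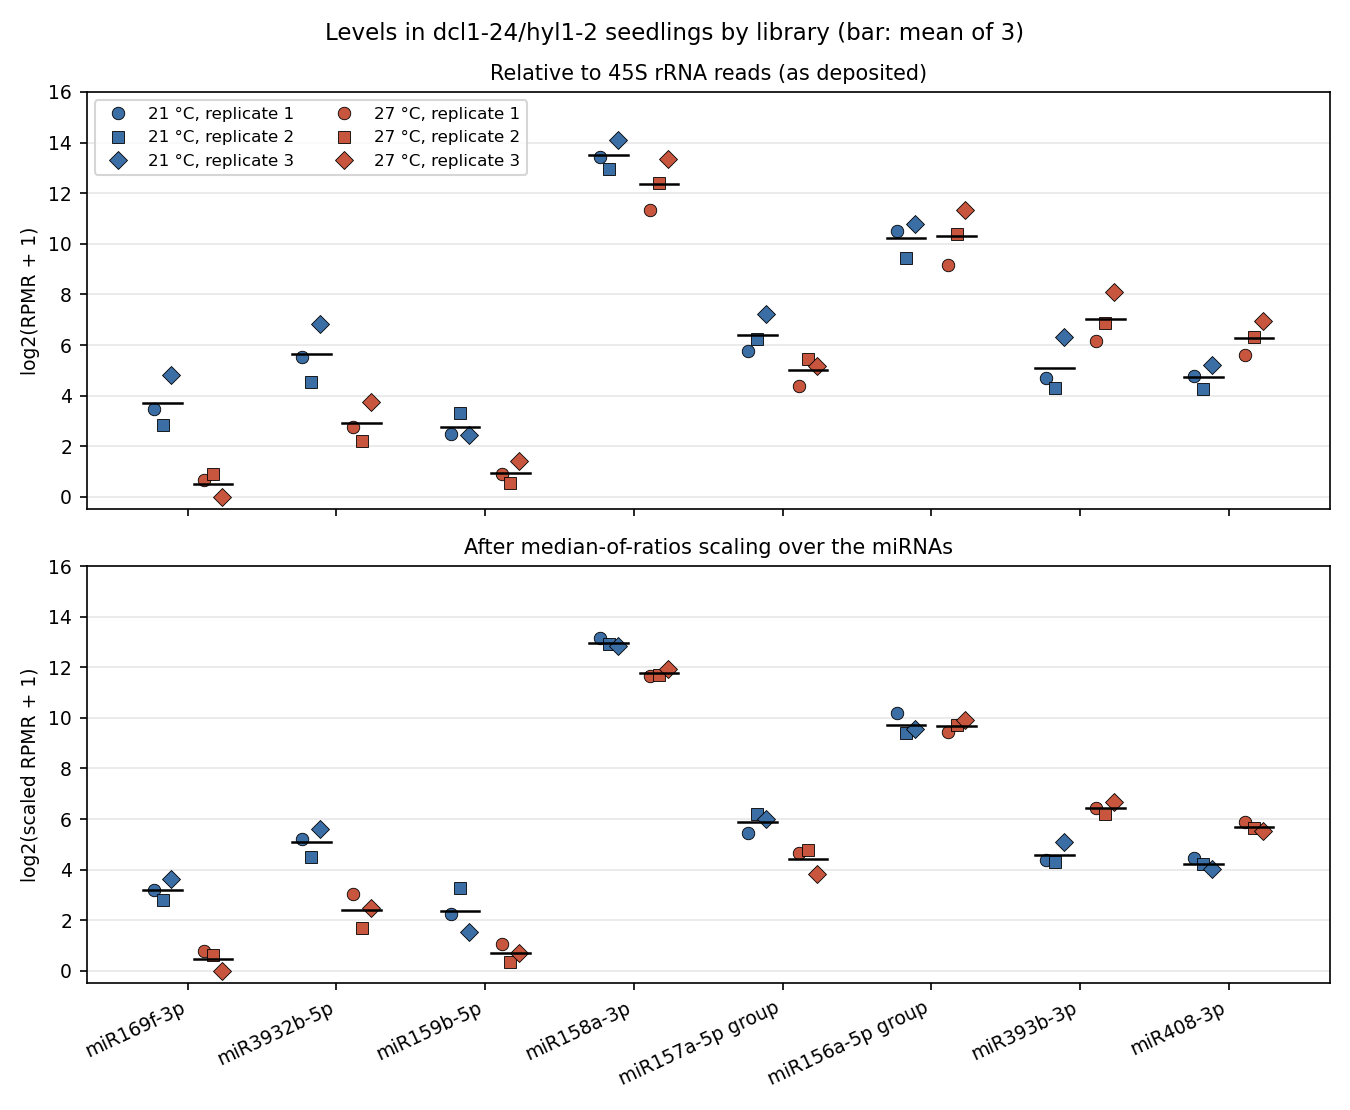
Levels of 8 entries in the 6 *dcl1-24/hyl1-2* libraries, as log2(RPMR + 1) on the deposited scale (top) and after median-of-ratios scaling (bottom); each point is 1 library, its shape the replicate and the bar the mean of 3. miR169f-3p and miR3932b-5p are lower in all 3 libraries at 27 °C on both scales, and the points of miR158a-3p, miR393b-3p and miR408-3p draw together within each temperature after scaling.

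Since the summed level ranged from 28742 to 107318 RPMR among the 6 libraries, the comparison was repeated with each library divided by its median-of-ratios factor over 69 miRNAs, which compares each miRNA with the others instead of with rRNA. The scaling factors in replicates 1, 2 and 3 came to 1.24, 1.02 and 2.37 at 21 °C, with 0.811, 1.61 and 2.69 at 27 °C. On this scale 2 entries rose and 4 fell, 4.32% of those tested, and 29, or 20.9%, passed an unadjusted limma p under 0.05. Scaling to the summed miRNA level called the same 6. On the median-of-ratios scale miR169f-3p had a log2 fold change of -2.73 (SE 0.51, limma adjusted p = 0.0022) and was called without each library in turn. miR3932b-5p had -2.71 (SE 0.68, limma adjusted p = 0.019) and was called in 2 of the 6 fits without 1 library, with a highest adjusted p of 0.14. miR159b-5p had -1.66 (SE 0.55) and was not called (limma adjusted p = 0.083). The median log2 fold change over the 139 was -0.11 on the median-of-ratios scale, a shift of less than 0.1 from the deposited scale. Groups did not overlap for 15 entries above and 24 below, or 28.1% of the entries.

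miR393b-3p rose on this scale. It is the strand opposite to the miR393 guide, which represses mRNAs of the TIR1/AFB auxin receptors, and comes from the 3p arm of MIR393b. On the deposited scale it was at 24.6, 18.9 and 78.9 RPMR at 21 °C and at 69.6, 116 and 273 RPMR at 27 °C, so that replicate 3 at 21 °C lay above replicate 1 at 27 °C. After scaling it was at 19.9, 18.5 and 33.2 at 21 °C and at 85.7, 71.8 and 101 at 27 °C, without overlap. The log2 fold change was 1.93 (SE 0.75, limma adjusted p = 0.23) on the deposited scale and 1.85 (SE 0.33, limma adjusted p = 0.0022) after scaling, where the call held without each library in turn (1.73 to 2.14, limma adjusted p 0.00097 to 0.026).

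miR408-3p, a guide strand that represses mRNAs of plantacyanin and laccases, copper proteins, also rose after scaling. It was at 26.3, 17.9 and 35.8 RPMR at 21 °C and at 47.5, 78.8 and 121 RPMR at 27 °C. No library at 27 °C was as low as the highest at 21 °C even on the deposited scale, where the log2 fold change was 1.55 (SE 0.75, limma adjusted p = 0.52). After scaling it was 1.45 (SE 0.37, limma adjusted p = 0.019). That call held without replicate 1 at 21 °C (1.63, limma adjusted p = 0.030) and was lost without any of the others. The values without them were 1.48 (limma adjusted p = 0.064) without replicate 2 and 1.38 (0.091) without replicate 3 at 21 °C. They were 1.35 (limma adjusted p = 0.085), 1.49 (0.068) and 1.59 (0.052) without replicates 1, 2 and 3 at 27 °C.

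miR158a-3p, an abundant miRNA of Arabidopsis and its relatives, fell after scaling. It was at 11189, 7866 and 17446 RPMR at 21 °C and at 2589, 5350 and 10551 RPMR at 27 °C. The groups overlapped on the deposited scale, because of the high replicate 3 at 27 °C, but not after scaling, where its values at 21 °C, 9023, 7713 and 7346, exceeded those at 27 °C, 3191, 3319 and 3917. As a share of the summed level it was 23.7 ± 6.4% at 21 °C and 10.7 ± 2.1% at 27 °C (SD, n = 3). The log2 fold change was -1.13 (SE 0.58, limma adjusted p = 0.57) before and -1.21 (SE 0.27, limma adjusted p = 0.011) after scaling. That call was lost without replicate 1 at 21 °C (-1.06, limma adjusted p = 0.078). It was also absent when only the 6 *dcl1-24/hyl1-2* libraries were scaled and fitted. miR158b, with the same seed and a different first base, had a log2 fold change of -1.10 (SE 0.74) before and -1.17 (SE 0.39, limma adjusted p = 0.083) after scaling. miR158a-5p, from the opposite arm, had values above 0, at 0.66 (SE 0.82) and 0.59.

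**Figure D2:**
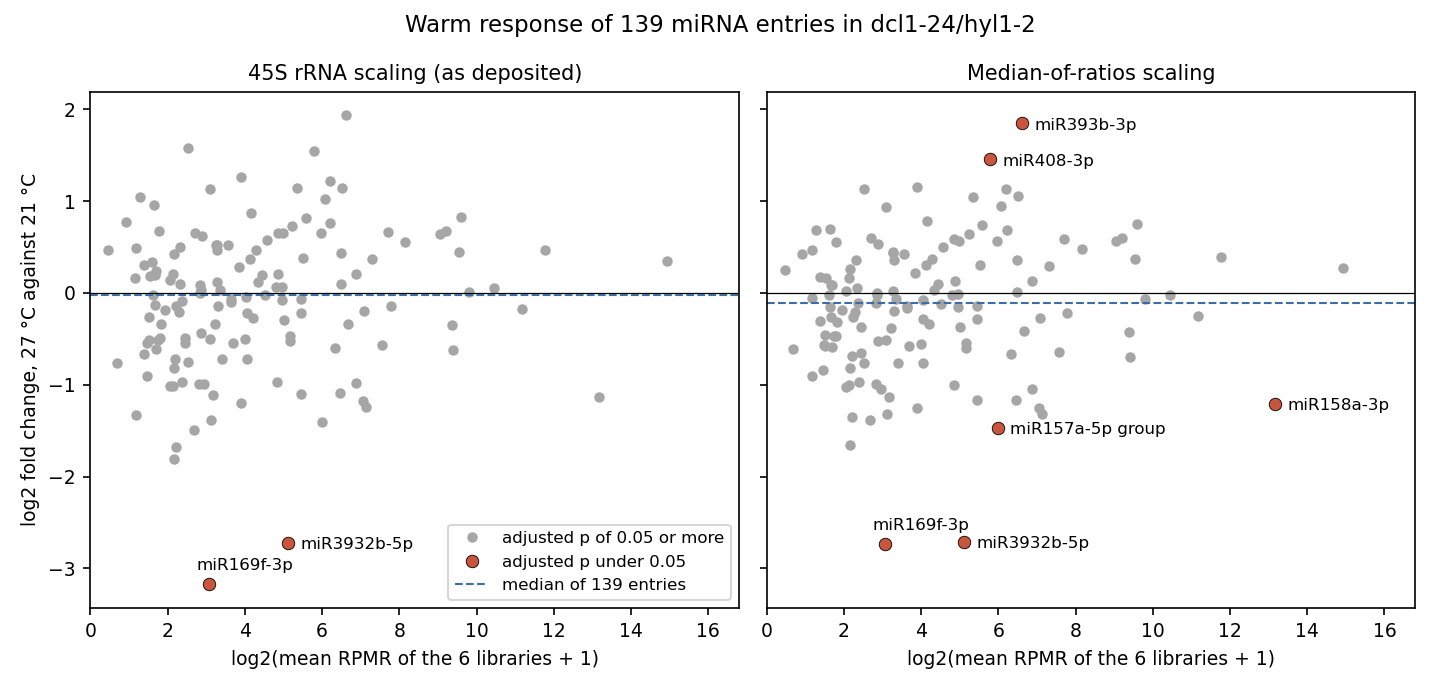
Log2 fold change at 27 °C against 21 °C of each of the 139 entries tested, plotted against log2(mean RPMR of the 6 libraries + 1), on the deposited scale (left) and after median-of-ratios scaling (right). Entries past a limma adjusted p of 0.05 are coloured and named, 2 on the left and 6 on the right, and the dashed line is the median, -0.03 and -0.11.

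The guide strands of miR156 and miR157 repress SPL transcription factor mRNAs and set the length of the juvenile phase. The joint entry of the miR156a to miR156f guides was at 1435, 691 and 1767 RPMR at 21 °C and at 564, 1352 and 2590 RPMR at 27 °C. The highest and the lowest of the 6 libraries were both at 27 °C. The log2 fold change was 0.06 (SE 0.67) on the deposited scale, with a 95% interval of -1.27 to 1.39, and -0.02 after scaling. As a share of the summed level the entry was 2.5 ± 1.0% at 21 °C and 2.6 ± 0.6% at 27 °C (SD, n = 3). miR156g, which differs from these in its first base, had a log2 fold change of 0.09 (SE 0.68).

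The joint guide entry of miR157a, miR157b and miR157c was at 52.6, 74.6 and 151 RPMR at 21 °C and at 19.7, 42.3 and 35.5 RPMR at 27 °C, without overlap. It fell after scaling (log2 fold change -1.47, SE 0.36, limma adjusted p = 0.019) and did not pass on the deposited scale (-1.41, SE 0.74, limma adjusted p = 0.59). The call after scaling was lost without replicate 2 (-1.28, limma adjusted p = 0.098) or replicate 3 at 21 °C (-1.37, 0.091) and without replicate 3 at 27 °C (-1.12, 0.15). It was also absent when only the 6 *dcl1-24/hyl1-2* libraries were scaled and fitted. None of the 6 passenger strands of miR156 and miR157 passed a test, beside 1.44% of all entries on the deposited scale and 4.32% after scaling. On the deposited scale they had log2 fold changes of 0.06 to 1.22 and a median of 0.79, beside -0.03 over all 139. After scaling 5 of the 6 were above 0, and miR157c-3p was at -0.01.

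A guide and its passenger come from the same duplex, and the ratio of 2 entries of a library does not depend on how the library was scaled, apart from the pseudocount. The ratio of guide to passenger was tested for 32 guide and passenger pairs, some of which share a guide. None passed at a limma adjusted p under 0.05, and 7, or 21.9%, passed at an unadjusted p under 0.05, 5 of them toward the guide at 27 °C and 2 toward the passenger. Both of the latter were pairs of the miR157 guide. Against miR157a-3p and miR157b-3p its log2 ratio was 0.64, 1.34 and 0.80 at 21 °C and -0.69, -0.64 and -2.41 at 27 °C. The guide thus exceeded this passenger in the 3 libraries at 21 °C and was below it in the 3 at 27 °C. The difference was -2.17 (SE 0.69, limma unadjusted p = 0.0051, adjusted p = 0.16). Against miR157c-3p the difference was -1.47 (SE 0.58, limma adjusted p = 0.19).

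The other direction was seen in miR165 and miR166, which repress HD-ZIP III transcription factor mRNAs of leaf polarity. The ratio of the miR165 guide to miR165a-5p was higher by 1.64 on the log2 scale at 27 °C (SE 0.64, limma adjusted p = 0.19). That of the miR166 guide to the joint passenger entry of miR166a and miR166b was higher by 1.64 (SE 0.69, limma adjusted p = 0.19), and that to miR166e-5p by 1.67 (SE 0.77, 0.19). The log2 ratios of the miR166 guide to the joint passenger ran from 3.43 to 4.88 at 21 °C (3.43, 4.88 and 4.17) and from 5.40 to 6.50 at 27 °C (6.50, 5.51 and 5.40). The groups did not overlap, but the difference did not pass over the 32 pairs. The pairs of the miR160 guide with miR160c-3p and of the miR168 guide with miR168b-3p were higher by 1.66 (SE 0.73) and 1.59 (SE 0.72), each with a limma adjusted p of 0.19. Both of these passengers were rare. miR168b-3p rests on 41 reads at 21 °C and 16 at 27 °C. After median-of-ratios scaling miR160c-3p was at 2.36, 5.09 and 2.26 at 21 °C and 0.71, 1.11 and 1.22 at 27 °C. At such levels the pseudocount of 1 weighs on the ratio, and its part was not tested. With its more abundant passenger miR168a-3p the miR168 guide went the other way, at -1.04 (SE 0.56, limma adjusted p = 0.22).

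**Figure D3:**
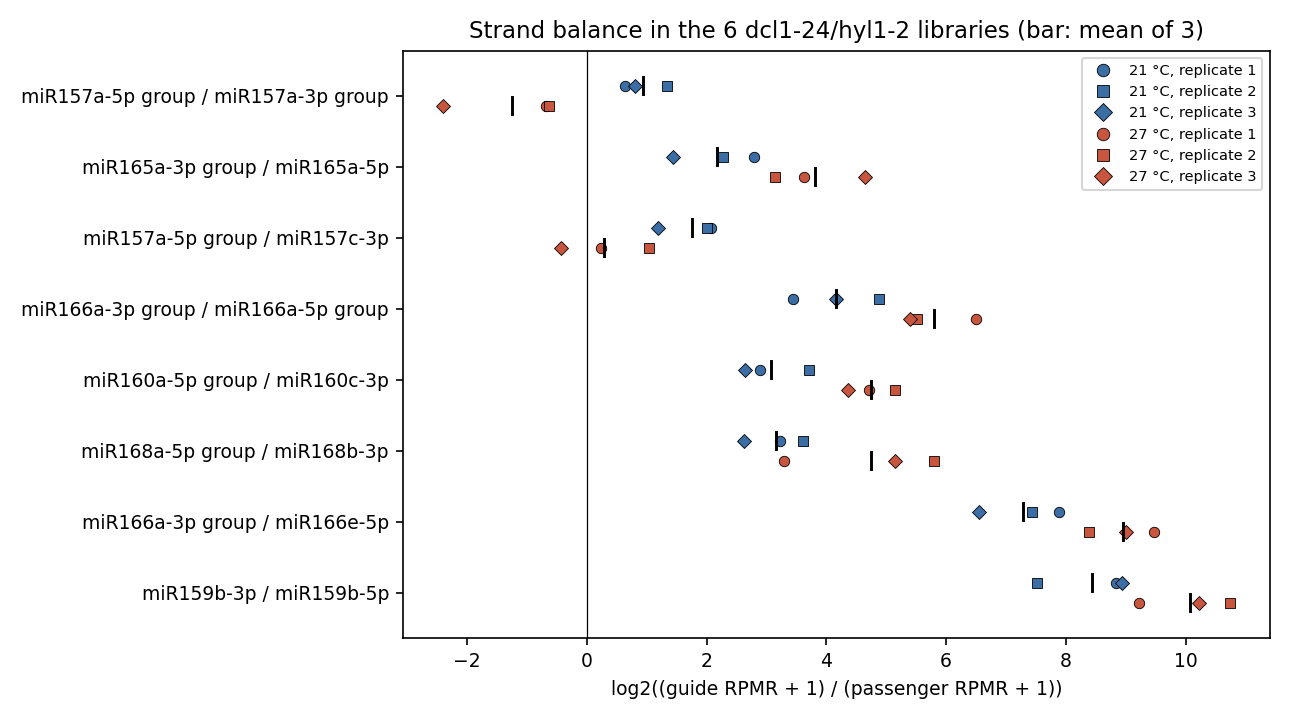
Log2 ratio of guide to passenger, (guide RPMR + 1) over (passenger RPMR + 1), in the 6 *dcl1-24/hyl1-2* libraries for the 8 pairs of smallest p among 32. Points are libraries and bars the mean of 3. The miR157 guide lies above its miR157a-3p and miR157b-3p passenger in the 3 libraries at 21 °C and below it in the 3 at 27 °C, and none of the 32 differences passed after adjustment.

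The 13 auxin-related entries are the strands of miR160 and miR167 (against ARF mRNAs), miR390 (which starts the TAS3 siRNAs against ARF mRNAs) and miR393. Their median log2 fold change was 0.34 on the deposited scale and 0.13 after scaling, beside -0.03 and -0.11 over all 139 entries. Without the block no entry of this list passed on the deposited scale, and after scaling miR393b-3p alone did, beside 1.44% and 4.32% of all entries. With the block miR393b-3p passed on the deposited scale in the 6 libraries alone (limma adjusted p = 0.025) but not in all 18 (0.075). miR393a-3p, from the other miR393 gene, was at 2.51, 2.36 and 0 RPMR at 21 °C and 0.58, 1.34 and 5.46 RPMR at 27 °C, with a log2 fold change of 0.34 (SE 0.60). The joint entry of miR167a-5p and miR167b was at 147, 226 and 301 RPMR at 21 °C and 168.4, 432 and 436 RPMR at 27 °C, with a log2 fold change of 0.55 (SE 0.73). The miR390 guide had 0.44 (SE 0.75) and the miR160 guide 0.65 (SE 0.75).

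The 6 entries of the copper-responsive miR398 and miR408 all had values above 0 on both scales, with a median log2 fold change of 0.77 on the deposited scale and 0.69 after scaling, whereas 67 and 59 of all 139 entries were above 0. miR408-3p, after scaling, was the only one past the test, beside 4.32% of all entries. miR408-5p, the opposite strand, was at 4.18, 4.25 and 16.1 RPMR at 21 °C and 8.99, 19.2 and 30.6 RPMR at 27 °C, with a log2 fold change of 1.26 (SE 0.74) on the deposited scale and 1.15 (limma adjusted p = 0.11) after scaling. The joint guide entry of miR398b and miR398c, which represses mRNAs of copper/zinc superoxide dismutases, was at 333, 419 and 560 RPMR at 21 °C and 552, 481 and 1189 RPMR at 27 °C, with a log2 fold change of 0.67 (SE 0.71). Its libraries overlapped, since replicate 3 at 21 °C lay above replicates 1 and 2 at 27 °C.

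Leaf and meristem miRNAs made up the largest list of a single role, with 20 entries. Their median log2 fold change was -0.16 on the deposited scale and -0.26 after scaling, beside -0.03 and -0.11 over all 139 entries. No entry passed on either scale without the block, beside 1.44% of all entries on the deposited scale and 4.32% after scaling. The values on the deposited scale ran from -1.81 (miR159b-5p) to 1.02 (miR396b-3p). miR396b-5p, which represses GRF mRNAs of cell proliferation, was at 322, 424 and 952 RPMR at 21 °C and at 502, 1134 and 1270 RPMR at 27 °C, with a log2 fold change of 0.82 (SE 0.70) and, after scaling, of 0.75 (limma adjusted p = 0.16). The miR319a and miR319b guide, against TCP mRNAs, had -0.35 (SE 0.68), and the miR164a and miR164b guide, against NAC mRNAs, -0.47 (SE 0.74). The joint miR166 guide, at 2904, 1812 and 3780 RPMR at 21 °C and 2159, 3778 and 6405 RPMR at 27 °C, had 0.46 (SE 0.62).

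Of the 7 entries of miR162, miR168 and miR403, whose guides repress the mRNAs of DCL1, AGO1 and AGO2, none passed, beside 1.44% of all entries, and 5 were below 0 on either scale, beside 72 of all 139 on the deposited scale and 80 after scaling. Their median log2 fold change was -0.57 on the deposited scale and -0.61 after scaling, beside -0.03 and -0.11 over all 139 entries. The miR162 guide, which acts on *DCL1* itself, was at 80.6, 88.7 and 590 RPMR at 21 °C and at 56.2, 114 and 201 RPMR at 27 °C, with a log2 fold change of -0.57 (SE 0.75). Replicate 3 at 21 °C was far above the other 5 libraries. miR403-3p shared this pattern, at 380, 341 and 1889 RPMR at 21 °C and 178, 482 and 773 RPMR at 27 °C, with a log2 fold change of -0.63 (SE 0.71). The passengers of miR168 differed in sign, miR168a-3p at 1.14 (SE 0.74) and miR168b-3p at -1.50 (SE 0.65), whereas their joint guide was at 0.09 (SE 0.76).

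In the nutrient lists no entry passed on either scale, beside 1.44% of all entries on the deposited scale and 4.32% after scaling. Lists this short would hold few calls at those shares. The 3 phosphate-responsive entries had log2 fold changes of -0.82 (miR2111b-3p), 0.37 (the miR399b and miR399c guide) and 0.49 (miR827), and the 2 miR395 entries, which respond to sulfate, -0.49 and 0.20. The 4 entries of miR170 and miR171 tested, against scarecrow-like mRNAs, lay between -0.20 and 0.47. The guides of miR173 and miR390, which trigger trans-acting siRNAs, had 0.06 and 0.44, and the 2 opposite strands of miR390 had -0.03 and 0.62. The 2 strands of miR822, which is cut by DCL4 and not by DCL1, had -1.11 (SE 0.75) and -0.51 (SE 0.70). On the deposited scale entries of broadly conserved families had a median of 0.14 over 68, and those of other families -0.22 over 71. In each 1 entry was lower past a limma adjusted p under 0.05, miR169f-3p and miR3932b-5p. After median-of-ratios scaling the medians were 0.008 and -0.28, beside -0.11 over all 139 entries. Of the 123 seeds among the tested entries 15 were shared by 31 entries. In 4 of these seeds the members had log2 fold changes of both signs on the deposited scale. Members of these include miR167d (-0.005), miR390b-3p (-0.03) and miR159a (0.01), which were near 0. Some signs changed after median-of-ratios scaling, with miR159a at -0.06 and miR157c-3p at -0.01.

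**Figure D4:**
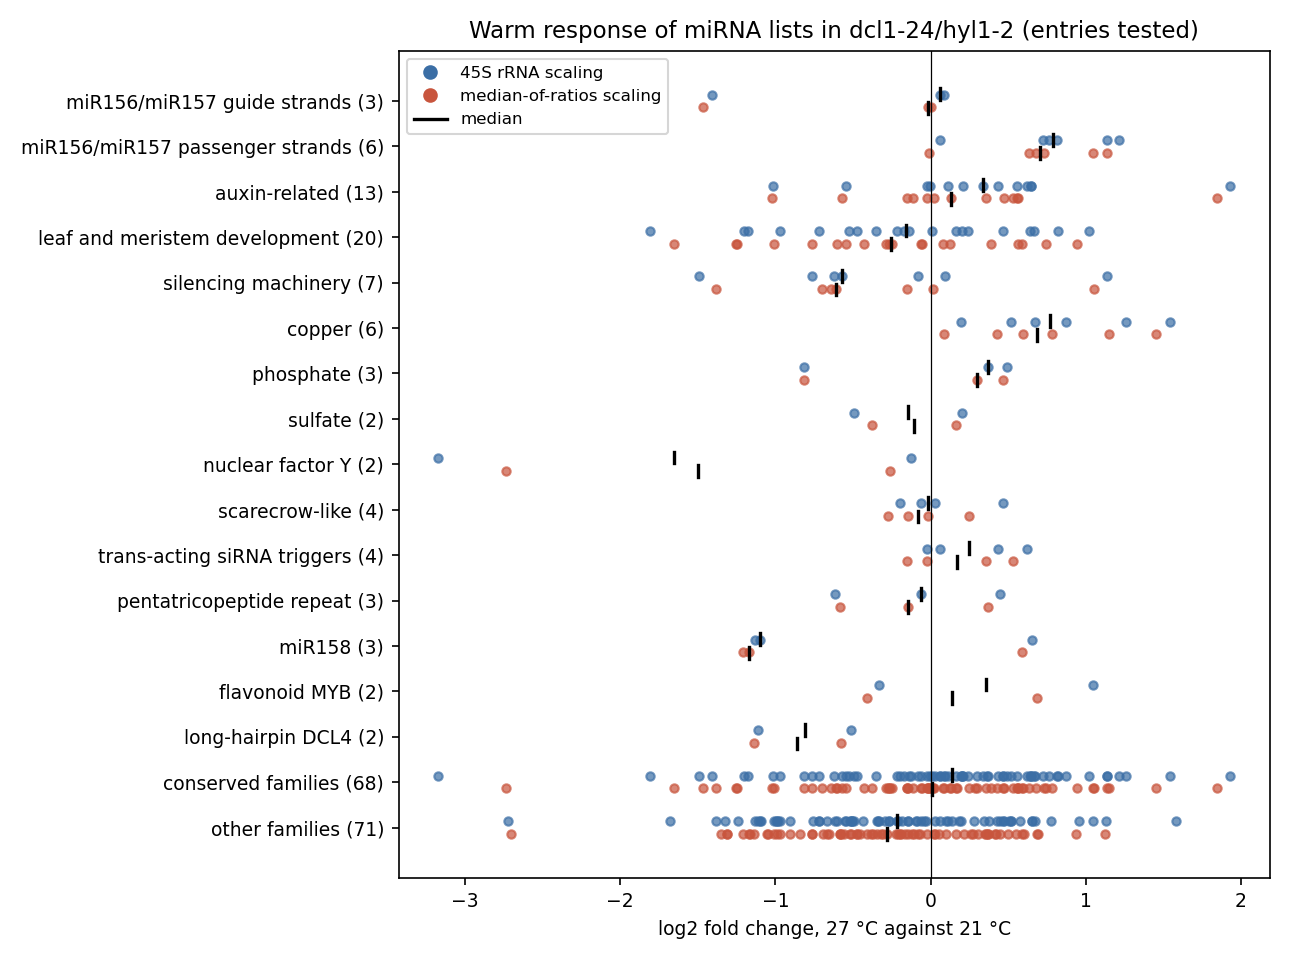
Log2 fold change at 27 °C against 21 °C of the entries in each list, with the number tested in brackets, on the deposited scale (blue) and after median-of-ratios scaling (red). Points are entries and bars are medians, and the lists other than the first 2 hold guides and opposite strands, the trans-acting siRNA list both strands of miR390 included. The 6 copper-responsive entries lie above 0 on both scales, and the miR156/miR157 guide list has 2 entries near 0 and the miR157 guide below -1.

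The same contrast was set beside that of the other genotypes. No entry had a warm response that differed from that of Col-0 or of *hyl1-2* at a limma adjusted p under 0.05, and 1 and 4 entries (0.719% and 2.88%) did at an unadjusted p under 0.05. The miRNAs called lower here were also low at 27 °C in Col-0, in which miR169f-3p was at 40.1, 36.7 and 36.9 RPMR at 21 °C and at 6.28, 5.71 and 2.39 RPMR at 27 °C. In *hyl1-2* it was at 1.01, 5.56 and 2.04 RPMR at 21 °C and at 0.962, 0.444 and 1.001 RPMR at 27 °C. The difference between the warm responses of *dcl1-24/hyl1-2* and Col-0 was -0.35 (95% interval -2.22 to 1.52) for miR169f-3p and -0.53 (-2.56 to 1.495) for miR3932b-5p. Against *hyl1-2* it was -2.23 (-4.10 to -0.36, limma adjusted p = 0.73) and -1.87 (-3.90 to 0.15). In *hyl1-2* miR169f-3p was already at a few RPMR at 21 °C, which left little room for a fall. Its difference from *hyl1-2* therefore cannot tell whether the responses differ.

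For miR393b-3p the log2 fold change was 2.14 in Col-0 and 2.29 in *hyl1-2*, and the difference of *dcl1-24/hyl1-2* from Col-0 was -0.21 (95% interval -2.32 to 1.91). For miR408-3p it was 1.89 and 2.27, with a difference from Col-0 of -0.35 (-2.44 to 1.75). Intervals this wide leave room for differences of 2-fold and more in either direction. Only miR5632-5p differed from Col-0 at an unadjusted p under 0.05, at 3.34, 3.30 and 3.58 RPMR at 21 °C and 2.90, 8.46 and 23.5 RPMR at 27 °C here, by 1.61 on the log2 scale (limma adjusted p = 0.97). The 4 that differed from *hyl1-2* at that level were miR169f-3p, whose level in *hyl1-2* left little room for a fall, miR845a, miR829-3p.1 and miR2111b-3p. The median difference over the 139 was -0.31 from Col-0 and -0.73 from *hyl1-2* on the deposited scale, and -0.04 and -0.27 after median-of-ratios scaling. On the deposited scale the median difference from Col-0 ran from -0.76 (without Col-0 replicate 3 at 27 °C) to 0.12 (without *dcl1-24/hyl1-2* replicate 1 at 27 °C) when 1 library was left out, and was 0.07 without Col-0 replicate 2 at 27 °C and -0.04 without *dcl1-24/hyl1-2* replicate 3 at 21 °C. That from *hyl1-2* ran from -1.15 to -0.37, without *dcl1-24/hyl1-2* replicates 3 and 1 at 27 °C. Across the 139 entries the log2 fold changes in *dcl1-24/hyl1-2* and Col-0 had a Pearson r of 0.71 and a Spearman rho of 0.64, and those in *dcl1-24/hyl1-2* and *hyl1-2* an r of 0.56 and a rho of 0.48, given as a description, since miRNAs of a library share its depth and scaling and are not independent.

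**Figure D5:**
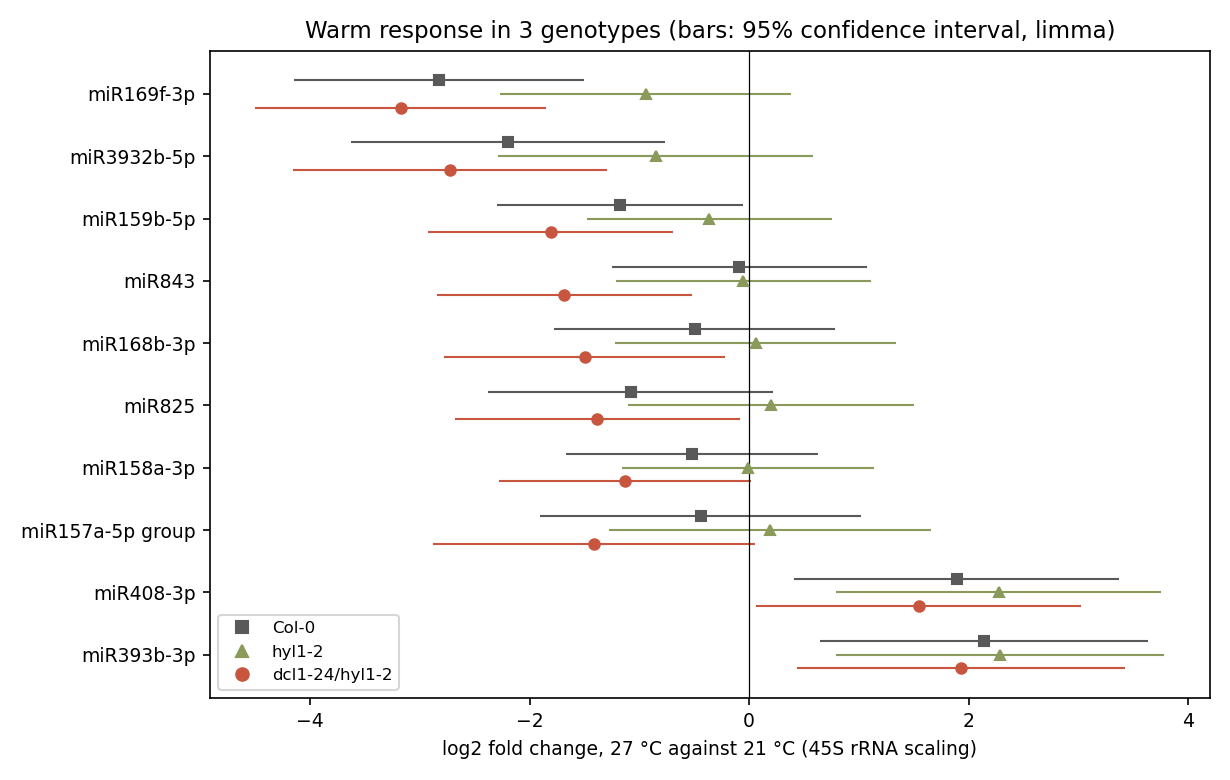
Log2 fold change at 27 °C against 21 °C on the deposited scale for 10 entries in Col-0 (squares), *hyl1-2* (triangles) and *dcl1-24/hyl1-2* (circles), with 95% confidence intervals from limma. miR169f-3p is at -2.82, -0.94 and -3.17 in these genotypes, its low level in *hyl1-2* at 21 °C leaving little room for a fall. miR408-3p and miR393b-3p are above 0 in all 3, and the intervals of the genotypes overlap for each of the 10.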

How the data were processed

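The deposited table holds an RPM-like level, reads scaled to the 45S rRNA reads of their library (RPMR). By their methods the authors trimmed adapters with cutadapt 3.0, aligned reads without mismatches to the Araport11 genome with ShortStack, scaled them to 45S rRNA reads and used DESeq2 1.35.0 for their own tests. Reads that match several family members are placed by the aligner, so the split between near-identical members is uncertain. The RPMR unit is not a count, although values are whole multiples of the smallest in a library. Counts implied in this way were used to describe depth and to give read numbers. They also gave the pooled rates of miR169f-3p and miR3932b-5p, but entered no limma fit.

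The replicates are named biological, without saying whether they were separate sowings. The 139 entries that averaged 1 RPMR or more were fitted as log2(RPMR + 1) with limma 3.58.1 (R 4.3.3), using a trended prior variance and 6 group means for all 18 libraries. Tests were two-sided, with Benjamini-Hochberg adjustment over all entries tested. The procedure was run on simulated data that lacked the spread in summed level between libraries, so its performance at that spread is not known. Exact permutation tests used numpy 2.4.6, exact intervals of the pooled rates scipy 1.17.1 and figures matplotlib 3.10.9, in Python 3.11.15. Same-numbered libraries at 21 °C and 27 °C deviated together (correlations of 0.16, 0.27 and 0.14, and -0.16 to -0.02 for other pairs), so their numbers were taken to pair them. This pairing rests on the values alone, the same ones to which the block was then fitted. The deviations are from the mean of each group, so the correlations of the other pairs are not independent of these. The entries named are those past adjusted p, those at unadjusted p under 0.05 whose groups do not overlap, the 10 most abundant, up to 3 of each list and all of miR156 and miR157, up to 5 of smallest p in each difference between genotypes and in strand balance, and miR393b-3p and miR408-3p. miR163, miR842, miR5637, miR158a-5p, miR393a-3p, miR396b-3p, miR408-5p and other list members outside these were named after their values were seen. The comparison, members and lists were chosen with earlier results of these data known. The alternatives were pseudocounts of 0.5 and 5, other minimum levels, scaling to the summed miRNA level or by median-of-ratios, a replicate block, array weights, the 6 libraries alone and each library left out.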

Additional observations from a re-analysis of the deposited data

How the results depend on the processing

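miR169f-3p was lower at 27 °C past limma adjusted p under 0.05 in every alternative run, and miR3932b-5p in all but the fit of the 6 libraries alone on the deposited scale (limma adjusted p = 0.095) and fits without 1 library. Counts of entries higher and lower at adjusted p under 0.05 were 0 and 2. They became 2 and 4 with median-of-ratios scaling and with summed miRNA scaling, 0 and 3 with array weights, and 0 and 1 in the 6 libraries alone. In those 6 with median-of-ratios scaling the counts were 2 and 2, the lower entries being miR169f-3p and miR3932b-5p. Without each library they ranged from 0 to 1 higher (miR5637, limma adjusted p = 0.042, without replicate 1 at 21 °C) and from 1 to 3 lower on the deposited scale, and from 1 to 2 higher and 2 to 4 lower with median-of-ratios scaling. At p under 0.01 and over 2-fold they were 1 and 4. They became 1 and 2 with a pseudocount of 5, and 0 and 2 with a minimum mean of 5 RPMR or in the 6 libraries alone. With summed miRNA scaling they were 3 and 6, with median-of-ratios scaling 2 and 10, and with array weights 2 and 6. In the 6 libraries with median-of-ratios scaling they were 4 and 5. Without each library these ranged from 0 to 3 higher and from 2 to 5 lower on the deposited scale, and from 2 to 3 higher and from 5 to 8 lower (7 without replicate 2 at 27 °C) with median-of-ratios scaling. The cause of these changes was not tested, apart from the fewer libraries or entries in some.

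With the replicate block the adjusted counts were 0 higher and 3 lower (2 higher at p under 0.01 and over 2-fold), with median-of-ratios scaling 2 and 4 (2 and 9), with summed miRNA scaling 2 and 3 (3 higher), and in the 6 libraries alone 2 and 4 (4 higher), which adds miR393b-3p, miR5637, miR159b-5p and miR843. The block changed no call of the differences between genotypes or of strand balance, which stayed at 0 in every alternative. Of 1470 values recomputed for 57 named miRNAs, 37 gained a call, 8 lost it, and 89 values not called changed sign. A called value reversed in 0 of them, but only miR169f-3p and miR3932b-5p were called in the main fit, so few values could reverse.

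Tests on counts were not run, since whole reads could not be established for each column by the rule set for it. The pooled rates of miR169f-3p and miR3932b-5p rest on the same implied reads. The fits combining a scaling with a block, with the 6 libraries or with a library left out, and the filter on the 6 libraries, were chosen after seeing the data. With 3 libraries a group, the median standard error of a log2 fold change was 0.68 on the deposited scale and 0.48 with median-of-ratios scaling, and 60 to 76 of the 161 entries had under 10 reads in a library. The part of depth in the standard errors was not tested.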
